A study of Homo sapiens with 4 samples.

Results

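Chaperones are proteins that help other proteins fold, keep them from clumping and carry them across membranes. The genes described here are the heat shock protein, J-protein and chaperonin genes of human embryonic stem cells, taken by symbol: all genes whose annotated symbol begins with HSPA, HSPB, HSPD, HSPE, HSPH, HSP90 or DNAJ, together with TCP1 and CCT2 to CCT8, with 2 pseudogenes left out. This gave 83 genes with 129 probes, of 20041 named genes with a probe. By the usual site of the protein, 48 were placed in the cytosol or nucleus, 13 in the endoplasmic reticulum (ER), 8 in mitochondria and 11 elsewhere. A further 3 carry a matching symbol without being a chaperone of these families, namely HSPBP1, HSPBAP1 and the readthrough transcript DNAJC25-GNG10, and were counted apart as name only.

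RNA came from 4 cultures in E8, a defined medium that keeps stem cells pluripotent, on plates coated with matrigel, and each culture was measured on 1 Illumina Expression BeadChip. The E8 culture was untreated and labelled 24 h, the Nam culture received 10 mM nicotinamide, the amide form of vitamin B3, for 24 h, and the Y27632 culture received 10 µM of that inhibitor of the kinase ROCK for 24 h. The Mesoderm culture received BMP4, a growth factor that drives stem cells out of pluripotency, for 6 days, and served as the differentiation control. Per the labels the cells are of an established human embryonic stem cell line, given as H9 in one field and H1 in another. No array of cells kept in E8 for 6 days without BMP4 was analysed here, so BMP4 and time in culture cannot be told apart. With 1 array per condition there are no replicates: no difference below has a replicate check, no test was run, and a gene is called higher or lower only by its size, at 1.5-fold or more (0.585 on the log2 scale).

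Hsp70 proteins hold unfolded stretches of other proteins in a cycle driven by ATP. J-proteins bring the clients and speed the cycle up, nucleotide exchange factors reset it, and Hsp90 and the barrel-shaped chaperonins take over some clients. Each compartment has its own set: HSPA8 and the CCT ring work in the cytosol, HSPA5 (BiP) and HSP90B1 (GRP94) in the ER, and HSPA9 (mortalin) and HSPD1 with HSPE1 (Hsp60 and Hsp10) in mitochondria. Cytosolic stress genes are classically driven by heat shock factors, which bind inverted repeats of GAA in promoters. ER chaperone genes are driven by the unfolded protein response, whose factors bind the ER stress element.

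These elements were looked for in RefSeq promoter windows (GRCh38.p14, 250 bases before to 50 bases after each gene start), on both strands. Of the 83 genes, 75 matched a window, with 98 windows in all because some genes have several starts. The 3-unit heat shock element, GAANNTTC followed by NNGAA (N is any base), was present in 7 of 98 member windows (7.14%) and in 0.49% of all 35116 windows. It was present in 6 of 57 windows of cytosolic members (10.53%), in 1 of 11 of mitochondrial members and in 0 of 13 of ER members. The genes with it were HSPA6, HSPA8, HSP90AA1, HSP90AB1, DNAJA1, DNAJB6 and HSPD1. The 2-unit forms lie inside the 3-unit one: GAANNTTC was present in 20.41% of member windows and 6.77% of all windows, and TTCNNGAA in 15.31% and 7.74%. The ER stress element, CCAAT and CCACG with 9 bases between them, was present in 2 of 13 windows of ER members (15.38%), those of HSPA5 and HSP90B1, and in 0.08% of all windows. Its first part alone, CCAAT, was present in 38.78% of member windows and 34.61% of all windows. A match is a description of the letters and does not show binding.

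The promoters of HSPA5 and HSP90B1, the ER members with a match to the ER stress element, are shown first. The other ER members called higher on the Mesoderm array had no match. Those with a window were DNAJB9, DNAJB11 and HSPA13, and DNAJC1 had no window. Each sequence is the 250 bases before the gene start, 5′ to 3′ in the direction of the gene, with matches to the ER stress element in capitals. HSPA5 lies on the minus strand, with the window at chr9:125241344-125241593 and the match at -66 to -48 from the start. HSP90B1 lies on the plus strand, with the window at chr12:103930160-103930409. Its first match, at -194 to -176, reads in the direction of the gene and its second, at -89 to -71, on the opposite strand.
HSPA5: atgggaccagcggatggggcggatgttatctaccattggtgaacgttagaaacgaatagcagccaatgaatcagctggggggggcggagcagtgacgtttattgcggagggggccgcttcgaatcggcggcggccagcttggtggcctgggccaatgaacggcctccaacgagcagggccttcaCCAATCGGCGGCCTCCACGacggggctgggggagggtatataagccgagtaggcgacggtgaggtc
HSP90B1: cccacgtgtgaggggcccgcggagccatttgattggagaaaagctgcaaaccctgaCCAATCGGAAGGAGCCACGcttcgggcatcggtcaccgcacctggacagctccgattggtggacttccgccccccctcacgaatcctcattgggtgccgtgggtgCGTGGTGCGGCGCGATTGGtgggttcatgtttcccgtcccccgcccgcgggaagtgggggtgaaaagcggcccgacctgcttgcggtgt

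The next promoters belong to cytosolic genes whose levels differ most in kind: HSPA8 differed little between the arrays, DNAJB6 was lower on the Mesoderm array, and HSPB8 was higher there. Capitals mark the 3-unit heat shock element in HSPA8 and DNAJB6, and the 2-unit GAANNTTC in HSPB8. HSPA8 lies on the minus strand, at chr11:123062137-123062386, with matches at -230 to -218 and, on the opposite strand, at -55 to -43. DNAJB6 lies on the plus strand, at chr7:157336754-157337003, with a match at -131 to -119. HSPB8 lies on the plus strand, at chr12:119178681-119178930, with a match at -88 to -81.
HSPA8: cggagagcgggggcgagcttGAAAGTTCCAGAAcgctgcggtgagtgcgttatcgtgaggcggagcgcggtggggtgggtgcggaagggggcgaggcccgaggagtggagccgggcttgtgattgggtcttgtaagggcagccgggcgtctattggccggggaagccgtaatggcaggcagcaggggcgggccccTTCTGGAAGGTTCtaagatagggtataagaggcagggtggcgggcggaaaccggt
DNAJB6: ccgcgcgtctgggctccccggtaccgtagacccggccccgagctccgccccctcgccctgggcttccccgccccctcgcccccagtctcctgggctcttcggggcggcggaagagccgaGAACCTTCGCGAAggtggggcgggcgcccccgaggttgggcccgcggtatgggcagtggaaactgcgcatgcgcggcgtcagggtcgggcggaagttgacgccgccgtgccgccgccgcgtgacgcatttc
HSPB8: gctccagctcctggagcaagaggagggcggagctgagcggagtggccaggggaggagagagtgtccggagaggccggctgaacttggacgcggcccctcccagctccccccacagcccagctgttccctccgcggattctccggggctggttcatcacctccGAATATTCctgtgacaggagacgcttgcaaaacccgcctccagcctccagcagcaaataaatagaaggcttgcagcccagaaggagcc

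The mean signal per array was 528.5 to 620.5, and 16509 to 18051 of 47296 probes were detected (detection p at most 0.01 against negative controls). Of the 83 members, 69 were detected on at least 1 array and 65 on all 4, with 68 in E8, 68 in Nam, 67 in Y27632 and 65 in Mesoderm. Levels below are normalized log2 intensities of the brightest detected probe of a gene, and differences are log2 differences between arrays. Levels of different probes cannot be set against each other. The cell labels were checked against marker lists. On the E8, Nam and Y27632 arrays all 7 pluripotency markers with a probe were detected, with a summed intensity of 36747 to 38486, and 1 of 8 mesoderm markers, with a sum of 224 to 248. That marker was MESP1 on E8 and Y27632 and ISL1 on Nam, each near the detection limit. Between Nam and E8, 0 of the 7 pluripotency markers passed 1.5-fold, with NANOG nearest at -0.58. The neuroectoderm marker OTX2 gave -1.22, and ISL1 was at least 1.07-fold higher on Nam. On the Mesoderm array 6 of the 7 pluripotency markers were detected, with a sum of 12918, and 7 of the 8 mesoderm markers, with a sum of 18286 (TBX5 was detected on no array).

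Markers of other cells differed on the Mesoderm array too, most of them upward. Endoderm markers summed to 2210 there with 3 of 4 detected, against 82 to 86 with none detected on the other arrays. Trophoblast markers summed to 3269 with 2 of 4 detected, against 45 to 60 with none detected. Endothelial markers summed to 1364 with 2 of 4 detected, against 254 to 281, and neuroectoderm markers to 968 with 1 of 4 detected, against 152 to 329. Fibroblast markers summed to 1129 with 3 of 4 detected, against 3208 to 4063 with 2 detected. That fall in the sum comes from THY1 (-2.97 against E8), while COL1A1 gave 1.97 and LUM was detected on Mesoderm only. The endoderm markers SOX17, FOXA2 and GATA6 were not detected on E8 and were at least 21.34-fold, 22.73-fold and 1.95-fold higher on Mesoderm. For the trophoblast markers TFAP2A and GATA3 this was at least 66.12-fold and 1.97-fold. The endothelial markers VWF and KDR gave 3.64 and 1.56 against E8, and the neuroectoderm marker OTX2 gave 1.69. The other markers AFP, CGA, KRT7, PECAM1, CDH5, SOX1, NEUROG2 and DCN of these lists were not detected on any array. These are mixed-cell samples, so a change in the share of a cell type and a change in RNA per cell cannot be told apart, and the part of the marker shift in the differences below was not tested.

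Against E8, 68 members were compared on the Mesoderm array. Of these, 15 were at least 1.5-fold higher (22.1%), beside 20.3% of all 11649 genes compared, and 11 were at least 1.5-fold lower (16.2%), beside 22.5%. With scaling of each array to its median in place of quantile normalization the split was 10 higher and 18 lower. The 11 include 3 genes not detected on Mesoderm whose bound is under 1.5-fold (DNAJC11, DNAJC12 and HSPA12B), and 8 were lower among genes detected on both arrays. Without background correction 11 of these 26 calls fell under 1.5-fold, with the offset at 50 it was 6, with median scaling 5 and in the authors' values 2. The median difference of the members was -0.05 and that of all genes -0.02, so the members as a whole lay close to the other genes. The compartments differed in their counts. In the ER 6 of 11 members were higher and 1 lower, with a median of 0.69, in mitochondria 1 of 8 was higher and 3 lower, with a median of -0.40, and in the cytosol 6 of 40 were higher and 6 lower, with a median of -0.12. Between probes of the same gene this difference had a pooled SD of 0.43 over 3182 genes and 0.37 over the 21 members with more than 1 detected probe, a technical spread that leaves out differences between cultures.

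**Figure D1:**
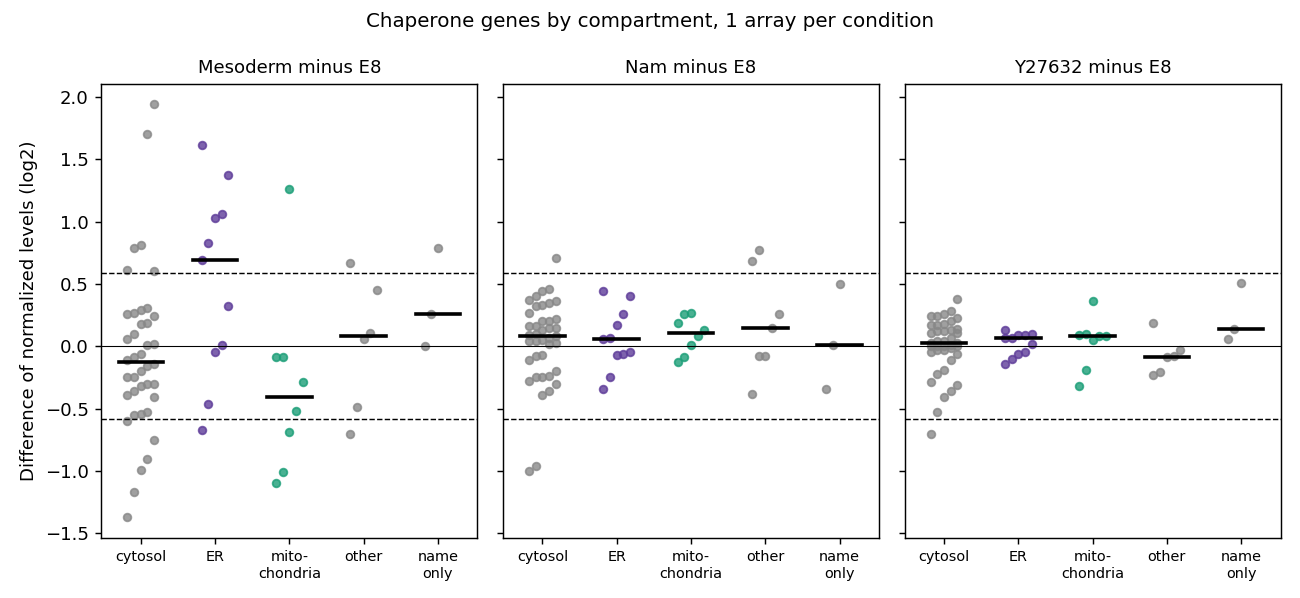
Differences of normalized levels (log2, vertical axis) for every member compared, by compartment, with a panel for each comparison with E8. Points are genes, short bars are medians and dashed lines mark 1.5-fold. Genes with a probe not detected on 1 of the arrays are drawn like the others. In the Mesoderm panel the ER median is 0.69 and the mitochondrial median -0.40, while Y27632 minus E8 has 1 gene past a dashed line.

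The ER set held its higher members in the Hsp70, Hsp90 and J-protein families alike. HSPA5, the main ER Hsp70, stood at 8.71 in E8, 8.66 in Nam, 8.84 in Y27632 and 9.77 in Mesoderm, a difference from E8 of 1.06 (2.09-fold). HSP90B1, the ER Hsp90, stood at 12.97, 12.91, 13.04 and 13.66 in the same order, a difference of 0.69 (1.61-fold), and with median scaling of 0.55, which is under 1.5-fold. In both genes the Mesoderm array was the highest and the other 3 lay close together.

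Among the ER J-proteins, DNAJB9 (ERdj4), which hands misfolded clients to degradation and is a target of the unfolded protein response, differed most. Its level was 8.43 in E8, 8.49 in Nam, 8.45 in Y27632 and 10.04 in Mesoderm, a difference from E8 of 1.61 (3.05-fold). DNAJC1 (ERdj1), a membrane J-protein that binds ribosomes, stood at 6.43, 6.17, 6.29 and 7.80, a difference of 1.37 (2.59-fold), and of 0.74 without background correction. The other 3 arrays again lay within a narrow band for each gene. DNAJB11 (ERdj3), a soluble partner of HSPA5, stood at 11.24 in E8, 11.68 in Nam, 11.34 in Y27632 and 12.06 in Mesoderm, a difference of 0.83, with Nam itself 0.44 above E8. HSPA13, a divergent ER Hsp70, stood at 8.05, 8.31, 8.14 and 9.08, a difference of 1.03. Its probes did not give the same value: the second probe gave 1.70, while another, detected on E8 only, gave -0.27 (SD 1.0 over 3 probes).

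None of the remaining ER members was called higher by its brightest probe. DNAJC18, a membrane J-protein, was lower: its level was 7.14 in E8, 7.55 in Nam, 7.22 in Y27632 and 6.47 in Mesoderm, a difference of -0.67, but of -0.57 in the authors' values, under 1.5-fold. DNAJB12, another membrane J-protein that works with cytosolic Hsp70, gave -0.46, and its 4 detected probes gave a mean of -0.47 (SD 0.08). Its close relative DNAJB14 gave 0.32, with a mean of 0.47 (SD 0.15) over 3 probes. All of these probes lay above E8, and the highest, at 0.61, was past 1.5-fold. DNAJC10 (ERdj5), which reduces disulfide bonds of clients, gave -0.05 and DNAJC14 gave 0.01. DNAJC3 (p58IPK) and DNAJC16 were not detected on any array.

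**Figure D2:**
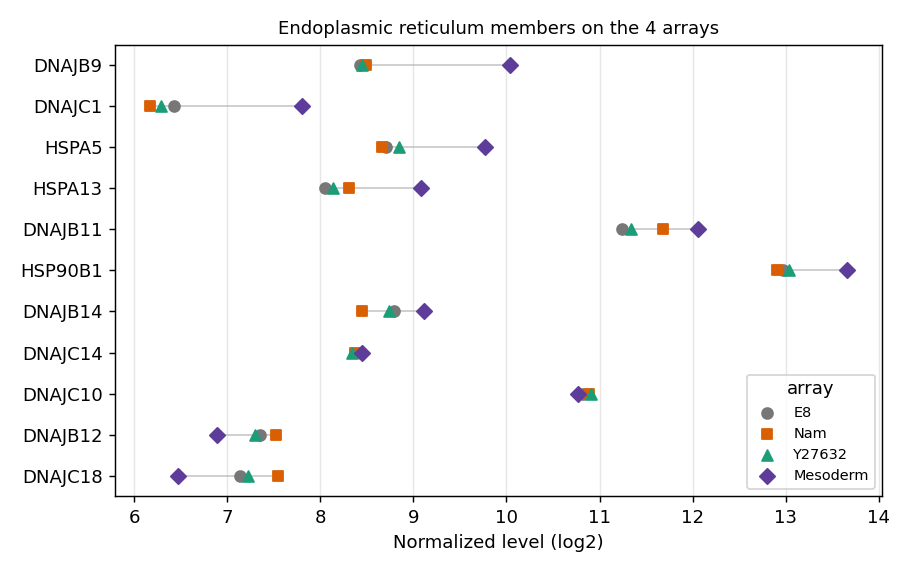
Normalized level (log2, horizontal axis) of the ER members on the 4 arrays, 1 symbol per array. The Mesoderm symbols of DNAJB9 (10.04), DNAJC1 (7.80), HSPA5 (9.77) and HSP90B1 (13.66) lie to the right of the other 3, and that of DNAJC18 (6.47) lies to the left.

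Other ER folding genes that are not members were read from a list. Of 10 genes 8 were detected, and on the Mesoderm array 5 of 8 were at least 1.5-fold higher and 0 lower, with a median of 0.64. Of all genes compared, 20.3% were higher and 22.5% lower. The genes of this and the other lists were not read under other ways of processing. They were MANF, an ER stress-induced secreted factor (0.95), SERPINH1, the collagen chaperone (0.80), CALR, a calcium-binding lectin chaperone (0.71), and the disulfide isomerases PDIA4 (0.64) and PDIA6 (0.63). CRELD2 gave 0.02. SIL1, a nucleotide exchange factor of HSPA5, stood at 6.94 in E8, 6.87 in Nam, 7.21 in Y27632 and 9.04 in Mesoderm, a difference of 2.10. HYOU1, the large ER Hsp70 relative, gave 0.35.

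In mitochondria 1 of 8 members had a difference above 0 on the Mesoderm array, beside 48.9% of all genes. Of the members below 0, HSPD1 and DNAJC30 lay within 0.09 of E8. HSPA9, the Hsp70 of the matrix, which pulls in and folds imported proteins, stood at 12.36 in E8, 12.37 in Nam, 12.44 in Y27632 and 11.85 in Mesoderm, a difference of -0.52, under 1.5-fold. Its J-protein partner DNAJA3 (Tid1) stood at 11.35, 11.62, 11.44 and 10.66, a difference of -0.69. Mesoderm was the lowest array for both genes.

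The J-proteins of the import motor went in opposite directions. DNAJC19, at the inner membrane, stood at 6.99 in E8, 6.86 in Nam, 7.10 in Y27632 and 5.89 in Mesoderm, a difference of -1.10, and of -0.47 without background correction, which is under 1.5-fold. DNAJC15, its counterpart in the same motor, stood at 8.96, 9.16, 9.05 and 10.23, a difference of 1.26 (2.40-fold). DNAJC15 was thus the 1 mitochondrial member on the higher side. DNAJC11, which takes part in the cristae complex, stood at 6.18, 6.09 and 5.99 on E8, Nam and Y27632 and was not detected on Mesoderm, which puts it at least 1.47-fold lower there. That bound sets the level on the bright array against the lowest level of any detected probe on the dim one.

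The mitochondrial chaperonin HSPD1 stood at 14.30 in E8, 14.37 in Nam, 14.34 in Y27632 and 14.21 in Mesoderm, a difference of -0.09, with a mean of -0.34 (SD 0.34) over 4 probes. Its lid HSPE1 stood at 11.50, 11.64, 11.86 and 11.22 by the brighter probe, a difference of -0.29. The second HSPE1 probe stood at 11.47, 10.71, 11.43 and 10.62, which gives -0.85 for Mesoderm and -0.76 for Nam, where the brighter probe gave 0.13. The probes of HSPE1 therefore place the Nam array on opposite sides of E8. DNAJC30, at the inner membrane, gave -0.09 by its brighter probe and 0.14 by the other. Of 5 detected mitochondrial partner genes, 1 was lower and 0 higher on the Mesoderm array, beside 22.5% and 20.3% of all genes, with a median of -0.42. The protease LONP1 gave -0.65, and the mitochondrial Hsp90 TRAP1 gave -0.45.

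The CCT ring folds actin and tubulin in the cytosol, and each of its subunits has a gene of its own. Of 9 genes, 2 were at least 1.5-fold lower on the Mesoderm array and 0 higher, with a median of -0.25, and the lower share (22.2%) is close to that of all genes (22.5%). TCP1, subunit alpha, stood at 12.76 in E8, 12.46 in Nam, 12.58 in Y27632 and 11.86 in Mesoderm, a difference of -0.90, and its other probes gave -0.78 and -0.48. CCT6B, a subunit zeta mainly of testis, stood at 6.79, 6.69, 6.26 and 6.05, a difference of -0.75, with -0.53 at an offset of 50 and -0.31 without background correction, both under 1.5-fold. The other subunits stayed under 1.5-fold, with CCT2 at -0.39, CCT5 at -0.36, CCT6A at -0.25, CCT4 at -0.11, CCT7 at -0.06, CCT3 at 0.01 and CCT8 at 0.26. The subunits of the ring thus did not share 1 difference: CCT8 was at its highest on Mesoderm, with 13.19 against 12.93 on E8, while TCP1 was at its lowest. The difference of CCT8 comes from 1 probe and is under the pooled SD of 0.43 between probes of a gene. With median scaling CCT3 was at -0.10 and CCT8 at 0.10.

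**Figure D3:**
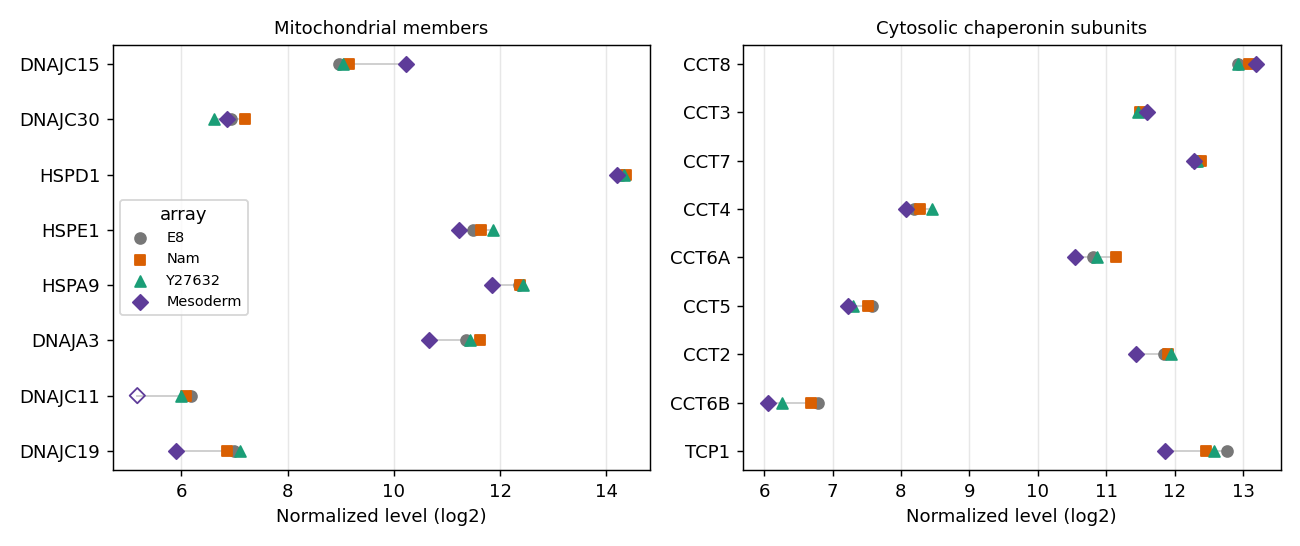
Normalized level (log2, horizontal axis) of the mitochondrial members (left) and the cytosolic chaperonin subunits (right) on the 4 arrays, 1 symbol per array, with an open symbol where the probe was not detected. Mesoderm lies to the left for DNAJC19 (5.89), DNAJA3 (10.66) and TCP1 (11.86) and to the right for DNAJC15 (10.23).

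Genes that feed or assist CCT were read from a list of prefoldin subunits and tubulin cofactors. Of 10 detected, 3 were higher and 1 lower on the Mesoderm array, beside 20.3% and 22.5% of all genes, with a median of 0.43. The prefoldin subunits VBP1 (0.96), PFDN5 (0.83) and PFDN1 (0.79) were higher, and TBCD, a tubulin cofactor, was lower, at 10.40 in E8, 10.41 in Nam, 10.21 in Y27632 and 8.68 in Mesoderm (-1.73).

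In the cytosol and nucleus the main Hsp70 and Hsp90 genes differed little between the arrays. HSPA8 (Hsc70), the constitutive Hsp70, stood at 13.30 in E8, 13.38 in Nam, 13.30 in Y27632 and 13.48 in Mesoderm, a difference of 0.18, with 0.16 by a second probe. HSP90AB1, the constitutive Hsp90, stood at 13.47, 13.51, 13.51 and 13.28, a difference of -0.20. HSP90AA1, its stress-inducible relative, stood at 14.30, 14.35, 14.48 and 14.57, a difference of 0.27. A second HSP90AA1 probe gave 0.12, and another, dim and detected on Mesoderm only, gave 1.01.

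HSPA1A and HSPA1B, the classical heat-inducible Hsp70 genes, are near-identical copies, and their probes may not tell them apart fully. HSPA1A stood at 9.95 in E8, 10.05 in Nam, 10.12 in Y27632 and 10.19 in Mesoderm, a difference of 0.24. HSPA1B stood at 10.91, 11.31, 11.11 and 10.37, a difference of -0.54. Neither passed 1.5-fold, and the Mesoderm array was the highest for one and the lowest for the other. HSPA6, the Hsp70 made almost only under strong stress, was not detected by either of its 2 probes on any array. Among the further Hsp70 genes HSPA2 gave 0.02 and HSPA14, which sits at the ribosome, gave -0.30. The exchange factors of the Hsp110 family gave -0.55 for HSPH1, 0.06 for HSPA4L and -0.32 for HSPA4, the last with a mean of -0.50 over 2 probes.

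Among the small heat shock proteins, which hold unfolding clients without ATP, 2 of the 7 members were detected. Both were higher on the Mesoderm array, beside 20.3% of all genes compared. HSPB8, which works with BAG3 in clearing damaged proteins, had signals before normalization of 248.3 in E8, 164.2 in Nam, 184.1 in Y27632 and 557.7 in Mesoderm. Its levels were 6.81, 5.81, 6.11 and 8.75, a difference from E8 of 1.94 (3.85-fold), the highest of any member, by 1 probe, and of 1.25 without background correction. HSPB1 (Hsp27), which also guards actin filaments, stood at 12.10, 11.82, 12.10 and 12.92, a difference of 0.81 (1.76-fold). BAG3 itself stood at 8.59, 8.69, 8.81 and 9.57, a difference of 0.98. CRYAB, a small heat shock protein outside the symbol rule, was not detected on E8 and was at least 1.46-fold higher on Mesoderm. HSPB2, HSPB3, HSPB6, HSPB7 and HSPB9, most of them known from muscle or testis, were not detected.

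The cytosolic J-proteins held differences of either sign. DNAJB5 stood at 7.94 in E8, 8.40 in Nam, 8.06 in Y27632 and 9.64 in Mesoderm, a difference of 1.70 (3.24-fold) that its 2 detected probes shared within an SD of 0.02. DNAJB4 stood at 6.97, 7.41, 7.0 and 7.76, a difference of 0.79, with 0.86 by the second probe but 0.58 with median scaling and 0.46 without background correction, both under 1.5-fold. DNAJB6, which keeps polyglutamine and other aggregation-prone proteins soluble, stood at 12.31, 12.66, 12.26 and 10.93, a difference of -1.37 (2.59-fold lower), with -0.95 by the second probe. These 3 genes belong to the same class B, and DNAJB6 differed in direction from the other pair. DNAJB1 (Hsp40), the best-known heat-inducible member of the class, stood at 9.33, 9.53, 9.44 and 9.62, a difference of 0.29.

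The cytosolic class A J-proteins, near relatives of the bacterial DnaJ, stayed under 1.5-fold, unlike the mitochondrial DNAJA3 of the same class, with DNAJA1 at 0.19, DNAJA2 at -0.53 and DNAJA4 at -0.41. Of the class C J-proteins, which have special tasks, DNAJC24 of diphthamide synthesis (0.61) and DNAJC8 of the spliceosome (0.60) lay just past 1.5-fold above E8, and with median scaling, at 0.41 and 0.47, under it. DNAJC7, which links Hsp70 and Hsp90, lay just past it below E8 (-0.60), with -0.57 at an offset of 50. DNAJC12, a co-chaperone of the aromatic amino acid hydroxylases, stood at 6.07 on E8, 5.82 on Nam and 6.45 on Y27632 and was not detected on Mesoderm, at least 1.36-fold lower. HSPA12B, a divergent Hsp70, was detected on E8 only, near the detection limit, at 5.83, which puts it at least 1.15-fold lower on Mesoderm.

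**Figure D4:**
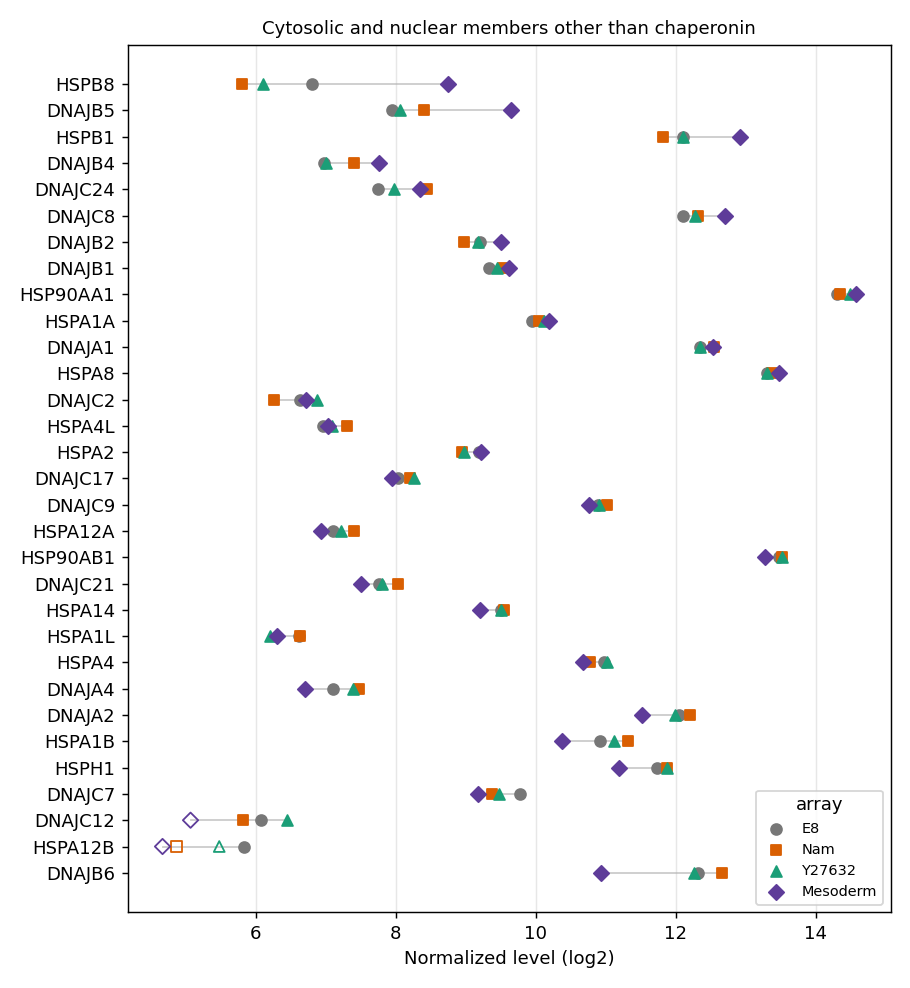
Normalized level (log2, horizontal axis) of the detected cytosolic and nuclear members other than the chaperonin subunits on the 4 arrays, 1 symbol per array, open where the probe was not detected. HSPB8 (8.75) and DNAJB5 (9.64) have Mesoderm far to the right and DNAJB6 (10.93) has it to the left, while the symbols of HSPA8 lie between 13.30 and 13.48.

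Elsewhere in the cell, DNAJC25, a membrane J-protein, stood at 7.82 in E8, 7.74 in Nam, 7.79 in Y27632 and 8.49 in Mesoderm, a difference of 0.67, and of 0.47 with median scaling, under 1.5-fold. The readthrough transcript DNAJC25-GNG10, which shares sequence with it, gave 0.79 (0.34 without background correction), so these probes may not be independent. DNAJC28 stood at 14.03, 13.66, 13.80 and 13.34, a difference of -0.70. This rests on 1 very bright probe of 4, with a signal of 18277.3 in E8, while its other probes had signals of 126.6 to 158.5 there and were not detected. Whether the bright probe measures DNAJC28 was not tested. DNAJC13 of endosomes gave -0.49, DNAJC27 gave 0.45 and DNAJC4 gave 0.06. HSPBP1, an exchange factor of Hsp70, gave 0.26. Its second probe gave -0.81 but was not detected on Mesoderm, so that value is not a measured difference. HSPBAP1 gave 0.00.

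Partner genes of Hsp70 and Hsp90 were also read from lists. On the Mesoderm array 20.3% of all genes compared were higher than on E8 and 22.5% lower. The Hsp70 partner list, which holds SIL1 and BAG3, had 3 of 11 higher and 2 lower there, with a median of 0.24. BAG4 gave 0.64, BAG5 gave -0.74 and GRPEL2, an exchange factor of HSPA9, gave -0.77. Of 9 Hsp90 co-chaperones 1 was higher, the cyclophilin PPID, which was not detected on E8 and was at least 1.70-fold higher, and 0 were lower, with a median of -0.31. The heat shock factors HSF1, HSF4 and HSF5 had probes that were not detected on any array, and their regulator HSBP1 gave 0.05.

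The Mesoderm array was also set against all 3 pluripotent cultures together. In this reading 10 of 69 members were at least 1.5-fold above each of E8, Nam and Y27632, beside 14.3% of 12083 genes, and 7 were at least 1.5-fold below each, beside 15.5%. Of the 10, 5 were ER members, 3 cytosolic, 1 mitochondrial and 1 elsewhere. Of the 7, 3 were mitochondrial, 3 cytosolic and 1 an ER member. The 7 include DNAJC11 and DNAJC12, which were not detected on Mesoderm. Their bounds against E8, given above, are under 1.5-fold, so their place among the 7 is not certain. Bounds against Nam and Y27632 were not computed.

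Few members, and few genes of any kind, lay past 1.5-fold between the Nam and E8 arrays. Of 69 members compared, 3 were higher than on E8, beside 4.93% of 11390 genes, and 2 were lower, beside 6.69%, which is 4.3% and 2.9% of the members. With median scaling the split was 1 higher and 2 lower. The median difference was 0.08 for members and 0.04 for all genes, and with median scaling -0.09 and -0.15. The pooled SD between probes of a gene was 0.30.

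The genes past 1.5-fold on Nam were mostly dim. DNAJC5, the cysteine string protein of secretory vesicles, stood at 6.19 in E8, 6.96 in Nam, 6.38 in Y27632 and 6.30 in Mesoderm, 0.77 above E8 (1.71-fold). DNAJC24 stood at 7.74, 8.44, 7.98 and 8.34, 0.71 above E8. DNAJC5G, a relative of DNAJC5, was detected on Nam only, at 5.63, at least 1.03-fold above E8. With median scaling DNAJC5 gave 0.56 and DNAJC24 gave 0.48, both under 1.5-fold. On the lower side HSPB8 was at 5.81 on Nam against 6.81 on E8, a difference of -1.0 (-0.40 without background correction, under 1.5-fold), and HSPA12B was not detected on Nam, at least 1.22-fold lower.

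Some stress-inducible genes stayed under 1.5-fold on the Nam array, with HSPA1A at 0.10, HSPA1B at 0.40, DNAJB1 at 0.20, HSPH1 at 0.15 and HSP90AA1 at 0.05. The small heat shock protein gene HSPB8 was lower, as given above. The ER genes that were higher on Mesoderm also stayed under 1.5-fold on Nam by their brightest probes. HSPA5 gave -0.05, HSP90B1 -0.06, DNAJB9 0.06, DNAJC1 -0.25, DNAJB11 0.44 and HSPA13 0.26. DNAJB4 gave 0.44 by its brighter probe and 0.82 by the second, so its call depends on the probe. Of the 46 partner genes compared, 3 were higher and 0 lower, beside 4.93% and 6.69% of all genes. The higher ones were PPID, not detected on E8 and at least 2.24-fold higher, CRYAB, not detected on E8 and at least 1.01-fold higher, and CRYAA, detected on Nam only. The Nam level of CRYAA (5.56) lay under the lowest detected level on E8 (5.59), so no fold is given.

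With Y27632 0 of 68 members were at least 1.5-fold higher than on E8, beside 1.58% of 10989 genes, and 1 was lower, beside 2.03%. With median scaling 0 were higher and 3 lower. The lower gene was HSPB8, at 6.11 against 6.81 on E8, a difference of -0.70, so that this gene was dimmer on both small-molecule arrays than on E8, an array the comparisons share. In the authors' normalized values its difference was -0.56 for Y27632 and -0.78 for Nam, and the former is under 1.5-fold. The median difference of the members was 0.04 and that of all genes 0.01 (-0.10 and -0.16 with median scaling), with a pooled SD between probes of 0.25. HSPA12B was not detected on Y27632, at least 1.01-fold lower. A second HSPA2 probe gave -0.63 where the brighter gave -0.22. Of 43 partner genes 0 were higher and 0 lower.

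Nam and Y27632 were compared directly as treatments of equal length in the same medium, at doses that differ. Of 68 members 2 were higher on Nam, beside 4.69% of 11173 genes, and 2 were lower, beside 4.89%. With median scaling the split was 1 and 2. DNAJC30 stood at 7.20 on Nam and 6.61 on Y27632, a difference of 0.59, but the mean over its 2 probes was 0.26. DNAJC5G was detected on Nam and not on Y27632, whose lowest detected level (5.82) lay above the level on Nam, so no fold is given. DNAJC12 stood at 5.82 on Nam and 6.45 on Y27632 (-0.63), and DNAJC2, a J-protein of the ribosome, at 6.26 and 6.87 (-0.61). In the authors' values the former gave -0.48 and the latter -0.49, both under 1.5-fold. The pooled SD between probes was 0.30. Of 46 partner genes 4 were higher on Nam and 0 lower: BAG4 (0.64), PPID (at least 1.90-fold), and CRYAB and CRYAA, which were detected on Nam and not on Y27632. The Nam levels of CRYAB (5.60) and CRYAA (5.56) also lay under 5.82, so no fold is given for them.

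Across the 3 pluripotent cultures the members varied about as much as other genes. Over the 67 members detected on E8, Nam and Y27632, the range between the highest and lowest array had a median of 0.25 and reached 1.0 in HSPB8, and 6 (9.0%) had a range of 1.5-fold or more. Over all 10003 genes detected on these arrays the median range was 0.25, and 10.6% had a range of 1.5-fold or more.

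The 14 members not detected on any array were HSPA6, HSPB2, HSPB3, HSPB6, HSPB7, HSPB9, DNAJB7, DNAJB8, DNAJB13, DNAJC3, DNAJC5B, DNAJC6, DNAJC16 and DNAJC22. Of these, 8 belong to the cytosol, 2 to the ER, 0 to mitochondria and 4 elsewhere. A probe that is not detected gives only a bound, and no statement on these genes follows from it.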

How the data were processed

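RNA of 4 cultures was measured on 1 Illumina Expression BeadChip each, and the sample titles gave the conditions. Per the file headers, the deposited table gives for each of 47296 probes a non-normalized signal intensity and a detection p-value. The authors' other table has normalized values, log2 by their range, with the method and any gene centring not given in the sources used here. The series matrix equals it (0 values differed, each column's median 5.58).

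The intensities were background-corrected from the detection p-values (offset 16), quantile-normalized over the 4 arrays and put on the log2 scale with neqc of limma 3.58.1 in R 4.3.3, which understates differences of dim genes. The normalization was tested on a simulated pair of arrays, both made from the E8 array. Only clearly detected probes were changed in it. That test therefore does not cover probes near the detection limit or a change of many genes. Of the probes, 30105 had 1 symbol in the platform annotation, 8 had several and 17183 were unnamed here; a RefSeq table changed 0 symbols. A gene was represented by its brightest probe among those detected (p at most 0.01) on at least 1 array (12083 genes), and was compared when that probe was detected on either array. Calls are by size, at 1.5-fold. Where a probe was detected on the brighter array alone, its fold is a bound against the higher of its value and the lowest detected level on that array (5.59 in E8, 5.54 in Nam, 5.82 in Y27632 and 5.63 in Mesoderm). The number of arrays limits the precision.

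Named with values are the 15 largest differences past 1.5-fold in each comparison, the 5 brightest members of each compartment, a list of canonical members, and members whose probes disagree in sign past 1.5-fold (0 further genes); a few more members are named to complete a family. The members and lists were chosen with earlier results of these data known. There were 8 alternatives.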

Additional observations from a re-analysis of the deposited data

How the results depend on the processing

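Under the 8 alternatives no member past 1.5-fold changed sign, but calls were lost and values under 1.5-fold did change sign: HSPE1 for Nam against E8 went from 0.13 to -0.31 by the mean of its probes. Median scaling moved the median of the members from -0.05 to -0.20 for Mesoderm, from 0.08 to -0.09 for Nam and from 0.04 to -0.10 for Y27632 against E8, so that those for Nam and Y27632 changed sign. This scaling moved the median of all genes to -0.19 for Mesoderm, -0.15 for Nam and -0.16 for Y27632 against E8, and 0.01 for Nam against Y27632. Members higher on Mesoderm numbered 10 to 16 over the alternatives, beside 15. Members lower on Mesoderm (11) numbered 18 with median scaling, 4 without background correction, 7 with an offset of 50 and 5 at a level of at least 8. Higher ER members numbered 5 to 6. The 3 lower mitochondrial members were 1 without background correction and 1 at a level of at least 8. For Nam against E8, the 3 higher members were 1 with median scaling, 0 without background correction, 1 with an offset of 50 and 1 at a level of at least 8, and the 2 lower were 0 without background correction, 1 with the offset, 1 when detected on both arrays and 0 at a level of at least 8. For Y27632, the 1 lower member was 3 with median scaling and 0 without background correction, with the offset, in the authors' values and at a level of at least 8. For Nam against Y27632, the 2 higher were 1 with median scaling, in the authors' values, when detected on both arrays and by the mean of probes, 0 without background correction, with the offset and at a level of at least 8, and 4 without the detection filter; the 2 lower were 0 without background correction, with the offset, in the authors' values and at a level of at least 8, and 1 by the mean of probes. A larger offset and uncorrected background compress differences of dim probes by construction, and the other causes were not tested. The alternatives for the ER and mitochondrial counts were chosen after seeing the data. No paired analysis was possible because each condition has 1 array.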
